A study of Bos taurus with 2 samples.

Results

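The let-7 microRNAs (miRNAs) and their close relative miR-98 were followed through 2 small RNA libraries of neonatal bovine lung. Members were the rows of the deposited miRNA table whose name, without species prefix, arm and copy number, was let-7a, b, c, d, e, f, g or i, or miR-98. They were chosen by name and not by their values, although earlier results of these data were known when the choice was made. There were 32 such rows among 2271, holding 27 distinct sequences. The libraries stand for normal and for collapsed lungs, with a single RNA pool of 4 cows (500 ng per sample) behind each. The series text gives the animals as normal and as cloned. The sample labels do not say that the collapsed lungs were those of the clones, which is inferred from the series text. With 1 pool per group there was no replicate, no difference below could be tested between the conditions, and intervals cover counting error only. Depth in the table was 4550911 reads for normal and 2822876 for collapsed lungs, so that 3 reads stood at 0.659 and 1.06 reads per 1000000 (RPM). In RNA from whole lung, fewer cells of a type and less RNA per cell cannot be told apart.

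A let-7 miRNA is cut from a hairpin precursor, and its 5p strand is the guide that is loaded into Argonaute and represses mRNAs that pair with its seed. The family is conserved across animals, is scarce in stem cells, where the protein LIN28 blocks its maturation, and accumulates as tissues differentiate. In human and mouse cells its targets include HMGA2 and LIN28 mRNAs, and loss of let-7 is a known feature of human lung tumours.

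The 9 guides are printed below as deposited, 5′ to 3′ and as DNA letters, because the small differences among them decide how far their reads can be told apart. Capitals mark the seed, bases 2 to 8, which all 9 share.
let-7a: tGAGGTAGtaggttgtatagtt
let-7b: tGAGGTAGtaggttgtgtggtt
let-7c: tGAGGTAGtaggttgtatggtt
let-7d: aGAGGTAGtaggttgcatagtt
let-7e: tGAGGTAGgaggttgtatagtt
let-7f: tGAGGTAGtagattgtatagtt
let-7g: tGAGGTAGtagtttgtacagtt
let-7i: tGAGGTAGtagtttgtgctgtt
miR-98: tGAGGTAGtaagttgtattgtt

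All 9 were 22 nt long and differed from let-7a at 1 to 4 positions, counted from 1 at the 5′ end and written with the base of let-7a first. let-7c (A19G), let-7e (T9G) and let-7f (G12A) each carried a single change. let-7b carried A17G and A19G, and let-7d T1A and T16C. let-7g carried G12T and T18C, and let-7i, at the most positions, G12T, A17G, T18C and A19T. miR-98 carried G11A and A19T. let-7b and let-7c differed from each other at 1 position. Of the 9 bovine guide names, 0 had a whole read value per row for normal lungs and 1 had one for collapsed lungs (within 0.005), so the deposited reads had been divided between rows. The split between near-identical members is therefore uncertain, and no source used here says how it was made.

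The family was abundant in both lungs. let-7a had the highest level when the equal rows of a name were summed, and let-7b when each sequence was counted once. All 32 rows together held 12.1% of the reads of normal lungs, with an exact binomial 95% interval of 12.05 to 12.11%. In collapsed lungs they held 12.7% (12.70 to 12.78%). The ratio of collapsed to normal was 1.05. The order of the 9 guides was the same in both libraries, and neighbours in the order were set apart beyond counting error in each. let-7a stood at 41456 RPM in normal and 43599 RPM in collapsed lungs, summed over 3 equal rows, and at 13819 and 14533 RPM on a single row. let-7f, described as pro-angiogenic in human endothelial cells, stood at 27481 and 28012 RPM, summed over 3 rows, and at 13741 and 14006 RPM with each sequence once. Counted in that way, let-7a and let-7f were within counting error of each other in normal lungs. let-7b, which limits the renewal of neural stem cells in mice, stood at 19947 and 20091 RPM. These 3 members and let-7g were the most abundant.

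Values of let-7g were 13444 RPM in normal and 12346 RPM in collapsed lungs. let-7i, which represses the endotoxin receptor TLR4 in human cells, stood at 8430 and 10703 RPM. let-7e stood at 3428 and 4365 RPM. The first of these was lower in the collapsed-lung library and the other pair higher. let-7d, a member reported as reduced in human fibrotic lung, stood at 2482 and 2713 RPM, and let-7c at 2033 and 2369 RPM. miR-98 was the scarcest guide in both libraries, at 1327 RPM in normal and 2236 RPM in collapsed lungs. The highest guide lay 31.2-fold above the lowest in normal lungs and 19.5-fold in collapsed lungs, so the range of levels was narrower in the latter. With each sequence counted once these were 15.0-fold and 8.98-fold. Bovine names outside the family were set beside let-7a for scale, leaving out rows named as 3p arms. The 5 nearest to let-7a, with its 3 rows summed, were miR-30a, miR-27b, miR-99a, miR-21 and miR-199a. Their ratios lay between 0.764 and 1.89. Against the level of a single let-7a row the nearest names could differ.

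**Figure D1:**
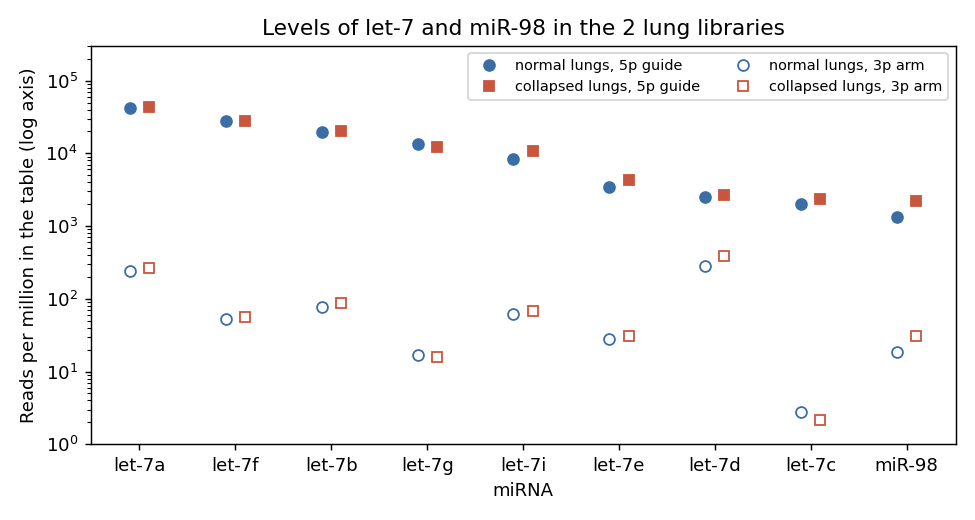
Level of each member in RPM (log axis) in the normal-lung (circles) and collapsed-lung (squares) libraries, with filled marks for the 5p guide and open marks for the 3p arm, 1 pool per mark. With the rows of a name summed, the guides run from let-7a at 41456 and 43599 RPM down to miR-98 at 1327 and 2236 RPM, and the 3p arm of let-7d stands above those of the other members.

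A mean of 10 RPM or more over both libraries made a row measured, and 23 of the 32 rows passed. A call needed a ratio of 2 or more, or of 0.5 or less, and that its exact conditional binomial 95% interval excluded 1. None of the 23 rows was called (0 higher and 0 lower), where 6.37% of the 487 measured rows of the table were, 3.49% higher and 2.87% lower. The median log2 ratio of the 23 rows was 0.13, against 0.09 over all measured rows, and 21 of the 23 lay within 1.5-fold, as did 388 of the 487 (79.7%). The interval lay above 1 in 13 of the 23 rows and below 1 in 1, while over the table it lay above 1 in 35.7% of rows and below in 25.3%. The 13 rows include the repeated equal rows of let-7a and let-7f. Rows with many reads also have narrow intervals, so that let-7f at 1.02 left out 1. This lean further depended on scaling. With median-of-ratios scaling the members' median became -0.026. The 9 guides then went from 7 intervals above 1 and 1 below to 4 above and 4 below. The 9 rows that did not pass held at most 16 reads each in either library.

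miR-98 had the widest ratio among the guides. Its reads numbered 6040 for normal and 6313 for collapsed lungs, although the latter library held fewer reads in all. The ratio was 1.69 (1.63 to 1.75), or 0.75 on the log2 scale, short of the 2-fold threshold. It ranged from 0.60 to 0.76 on the log2 scale over the other scalings and settings. A higher ratio was found in 40 of the 487 measured rows, and in 2 of the 99 rows of at least 1000 RPM. miR-98, which represses the mRNA of the cytokine IL-10 in mouse macrophages, took 1.11% of the family's guide reads in normal lungs (1.08 to 1.13%) and 1.77% in collapsed lungs (1.73 to 1.81%). This share does not depend on how the libraries are scaled to each other, and with each sequence counted once it was 1.69% and 2.68%.

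The other guides lay closer to 1. let-7e was at a ratio of 1.27 (1.24 to 1.30) and let-7i also at 1.27 (1.25 to 1.29). let-7c was at 1.17 (1.13 to 1.202) and let-7d at 1.09 (1.06 to 1.13). Nearest to 1 in this scaling were let-7a at 1.05 (1.04 to 1.06), let-7f at 1.02 (1.01 to 1.03) and let-7b at 1.01, whose interval (0.997 to 1.02) held 1. let-7g was the single guide below 1, at 0.918 (0.906 to 0.931). The ratios of let-7a, let-7b, let-7d and let-7f came out below 1 with median-of-ratios scaling, which moved every log2 ratio by -0.16 and left let-7d (-0.026) and let-7c (0.065) nearest to 1, while those of let-7c, let-7e, let-7i and miR-98 stayed above 1 and that of let-7g below.

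Within the family, the abundant guides held a smaller share of the reads in collapsed lungs. let-7a, let-7f, let-7b and let-7g together took 85.3% of guide reads in normal lungs and 82.3% in collapsed lungs, or 77.5% and 73.2% with each sequence counted once. let-7a itself took 34.5% in both, or 17.6% and 17.4%. let-7g went from 11.2% (11.1 to 11.3%) to 9.76% (9.67 to 9.86%), and let-7i from 7.02% (6.96 to 7.09%) to 8.46% (8.37 to 8.56%). With each sequence counted once, let-7g went from 17.1% to 14.8% and let-7i from 10.7% to 12.8%. let-7g and let-7i differ from each other at 2 positions, and there were 0.627 reads of let-7i for each read of let-7g in normal lungs and 0.867 in collapsed lungs.

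**Figure D2:**
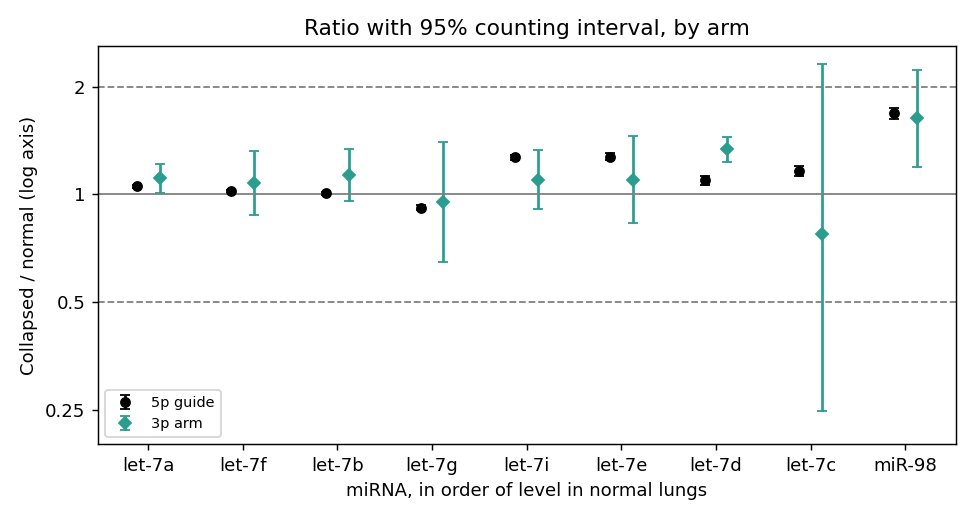
Collapsed over normal lungs (ratio of RPM, log axis) for the 5p guide (circles) and the 3p arm (diamonds) of each member, with exact 95% counting intervals and dashed lines at the 2-fold thresholds. The arms of miR-98 lie at 1.69 and 1.63, and the 3p arms of the scarce precursors have wide intervals.

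The 3p arm of a precursor is the strand that is mostly discarded, and it gives a count of the same precursor that the guide rows did not use. There were 12 rows of 3p arms in 11 distinct sequences with 7 different seeds, of which 10 rows were measured. Those with at least 10 RPM are printed below in the same way, with bases 2 to 8 in capitals. Most stand in the table under names of other species, and several end in a base that differs from the name's reference. By the row names, the sequence named both let-7a-3p and let-7f-2-3p differs from the let-7a reference at base 8, within the capitals. From the let-7f-2 reference it differs at base 22 only.
let-7a-3p: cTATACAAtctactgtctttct
let-7a-3p, also named let-7f-2-3p: cTATACAGtctactgtctttct
let-7b-3p: cTATACAAcctactgccttcct
let-7d-3p: cTATACGAcctgctgcctttct
let-7e-3p: cTATACGGcctcctagctttcc
let-7f-1-3p: cTATACAAtctattgccttcct
let-7g-3p: cTGTACAGgccactgccttgct
let-7i-3p: cTGCGCAAgctactgccttgct
miR-98-3p: cTATACAActtactactttcct

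miR-98-3p had 85 reads in normal and 86 in collapsed lungs, a ratio of 1.63 (1.19 to 2.23) beside 1.69 for its guide. The arms of miR-98 thus differed by 0.05 on the log2 scale, and its 3p share was 1.39% and 1.34%. let-7d stood apart in strand use. Its 3p arm had 1302 and 1078 reads, or 10.3% of the precursor's reads in normal lungs (9.81 to 10.9%) and 12.3% in collapsed lungs (11.7 to 13.0%). The 3p share of the other 8 members was between 0.124% and 1.39% in normal lungs, with that of let-7a at 0.569%, or 1.69% when its 5p sequence was counted once. The ratio of let-7d-3p was 1.34 (1.23 to 1.45), and its interval did not overlap that of the let-7d guide.

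For let-7e and let-7i the 3p arms, on 129 against 88 and on 280 against 191 reads, both had a ratio of 1.10. Their intervals (0.829 to 1.45 and 0.910 to 1.33) held both 1 and the ratio of the guide. The arms of let-7a, let-7b and let-7f were at 1.11, 1.13 and 1.07. let-7g-3p, at 76 and 45 reads, was at 0.955 (0.645 to 1.40). let-7c-3p had 12.5 and 6 reads and was not measured. The sequence named both let-7a-3p and let-7f-2-3p stood on 2 rows, with 449 reads in normal and 303 in collapsed lungs and a ratio of 1.09 (0.937 to 1.26). By name, 309 and 209 of these reads were counted towards let-7a and 140 and 94.7 towards let-7f. The 3p levels and shares of let-7a and let-7f depend on this division. Over all members the 3p arms made up 0.648% of the family's 5p and 3p reads in normal and 0.736% in collapsed lungs, or 0.985% and 1.11% with each sequence counted once.

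**Figure D3:**
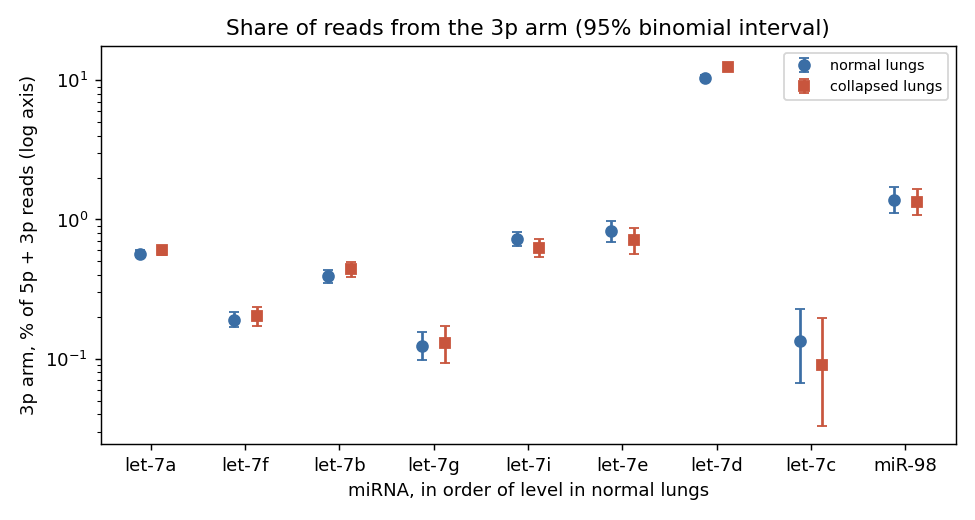
Share of each member's 5p and 3p reads that came from the 3p arm (percent, log axis) in the normal-lung (circles) and collapsed-lung (squares) libraries, with exact binomial 95% intervals. With the rows of a name summed, let-7d stands at 10.3% and 12.3%, and every other member at or below 1.39%.

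Many let-7 genes are transcribed together with other miRNAs. In the RefSeq gene table of another bovine assembly (ARS-UCD2.0), used here for gene order only, there were 12 let-7 and miR-98 genes. MIR98 stood next to MIRLET7F-2, and MIRLET7A-1 next to MIRLET7F-1 and MIRLET7D. MIRLET7A-3 and MIRLET7B lay on either side of MIR2443. MIRLET7C lay between MIR125B-2 and MIR99A, MIRLET7E between MIR99B and MIR125A, and MIRLET7A-2 between MIR125B-1 and MIR100. let-7a, let-7f and miR-125b are each made from more than 1 gene, so their levels cannot be given to a single cluster.

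The ratios of the let-7a, let-7c and let-7e guides lay above those of the 5p arms of their miR-99, miR-100 and miR-125 neighbours. The 5p arms of the 5 partner names, miR-99a, miR-99b, miR-100, miR-125a and miR-125b, were all measured, none was called, and all 5 had intervals below 1, with a median log2 ratio of -0.11. Over all measured rows 6.37% were called, 25.3% had intervals below 1 and the median was 0.09. The 3p arms of the partners did not all follow, since miR-99a-3p, on 331 against 260 reads, was at 1.27 (1.07 to 1.49). The 3p arms of miR-99b, miR-125a and miR-125b were at 0.777, 0.918 and 0.9402 with intervals that held 1, and miR-100-3p was not measured. let-7e, at 1.27, stood beside miR-99b at 0.926 (0.913 to 0.939) and miR-125a at 0.871 (0.862 to 0.881). Independent of scaling, there were 0.184 reads of let-7e for each read of miR-125a in normal lungs (0.181 to 0.188) and 0.270 in collapsed lungs (0.264 to 0.275). The balance of these miRNAs, whose genes lie side by side, was 1.46-fold higher in collapsed lungs. This holds for the 5p arms. The 3p arms of let-7e, at 1.10 (0.829 to 1.45), and miR-125a, at 0.918 (0.686 to 1.22), had overlapping intervals.

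let-7c, at 1.17, stood beside miR-99a at 0.926 (0.918 to 0.933). Reads of let-7c for each read of miR-99a went from 0.0561 to 0.0706, or 1.26-fold higher. The 3p arm of miR-99a, at 1.27 (1.07 to 1.49), had an interval that held the ratio of the let-7c guide. let-7a reads for each read of miR-100, itself at 0.816 (0.802 to 0.831), went from 5.36 to 6.90, or from 1.79 to 2.30 with the let-7a sequence counted once. For miR-98 the neighbouring gene is a let-7 gene, and reads of miR-98 for each read of let-7f went from 0.0483 (0.0471 to 0.0496) to 0.0798 (0.0778 to 0.0819), or from 0.0966 to 0.160 with each sequence counted once. The 3p sequence named both let-7a-3p and let-7f-2-3p, at 1.09, had an interval that reached up to 1.26 over its 2 rows. On the row with the let-7f-2 name alone the interval reached 1.43. Both limits lay below the ratio of the miR-98 guide, and both intervals overlapped that of miR-98-3p.

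**Figure D4:**
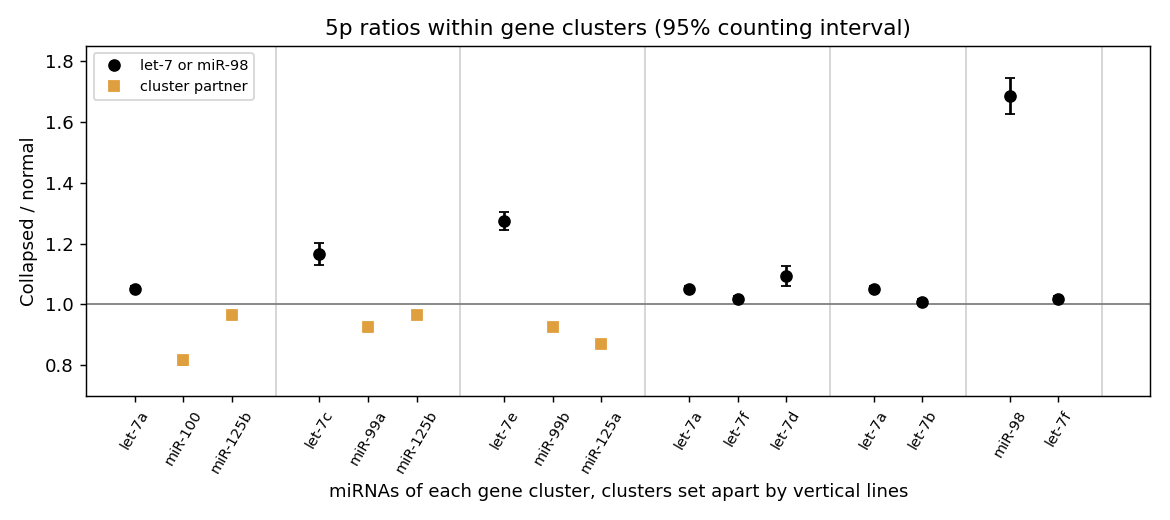
Collapsed over normal lungs (ratio of RPM) for the 5p miRNAs of 6 gene clusters, with exact 95% counting intervals, let-7 and miR-98 as circles and other miRNAs as squares. A miRNA made from several genes is drawn in each of its clusters, and the squares lie between 0.816 and 0.965, below the circles of their cluster.

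A few rows carried guide sequences with altered ends. The 24 nt form of let-7c with 2 added bases, tGAGGTAGtaggttgtatggttAT (added bases also in capitals), stood on 2 equal rows and summed to 22 reads in normal and 32 in collapsed lungs. Its ratio was 2.34 (1.32 to 4.24) at a mean of 8.09 RPM, under the minimum. With the sequence counted once, at 11 and 16 reads and a mean of 4.04 RPM, the interval was 1.02 to 5.59. The 2 equal rows were the member rows among the 78 that the authors' deposited table sets apart as different. Their fold change there was 2.15. The same 2 bases followed let-7i in a row named for mouse let-7j, tGAGGTAGtagtttgtgctgttAT, with 182 and 136 reads and a ratio of 1.205 (0.958 to 1.51). Relative to the 22 nt form plus the longer one, the longer form was 0.238% and 0.479% of let-7c reads, with overlapping intervals (0.149 to 0.360% and 0.328 to 0.675%), and 0.472% and 0.448% of let-7i reads. The let-7c shares set the sum of the 2 equal rows against a single row of the 22 nt form.

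Of the guide rows under other species' names, 1 of 6 was measured. It is named for platypus let-7e, had 54 and 47.5 reads, and was at 1.42 (0.951 to 2.15). Its sequence, tGAGGTAGtagattgaatagtt, differed from bovine let-7f at 1 position (T16A) and from bovine let-7e at 3. By the naming rule it counted towards let-7e, whose ratio was 1.27 with and without it. Rows with a shifted 5′ end or lacking the family sequence had 8 reads or fewer in each library.

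Other miRNAs are reported to target LIN28 mRNA in human or mouse cells. Of 9 such names, all were measured as 5p arms, none was called, 2 had intervals above 1 and 7 below 1. Over all measured rows 6.37% were called, 35.7% had intervals above 1 and 25.3% below. The median log2 ratio of the 9 was -0.15, against 0.09 over all measured rows. Most are of the miR-30 family, and miR-125a and miR-125b are also cluster partners. The counts depend on scaling, since median-of-ratios scaling moved every log2 ratio by -0.16 and miR-181a was at 0.05. miR-30a-5p, the most abundant, was at 0.764 (0.758 to 0.770) and miR-30d at 0.774 (0.762 to 0.786). miR-181a was at 1.04 (1.02 to 1.05). miR-9, known from neural tissue, was at 1.51 (1.11 to 2.04) on 92 against 86 reads.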

How the data were processed

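Small RNA was sequenced in 1 pool per group. Total RNA (Trizol) went into TruSeq small RNA libraries, per the labels' protocols. The build was bosTau8, per the submitters' processing notes, and for aligner, trimming and miRNA database the sources name nothing. The deposited table, per the file headers, gives raw read counts per row, partly fractional, a normalized signal, a fold ratio with its log2 value, and p-values from tests on the reads of 2 libraries, which are not used here. Commas in the counts were removed.

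Counts were scaled to RPM of the reads in the table. Ratios carry exact conditional binomial 95% intervals and shares exact Clopper-Pearson 95% intervals, on counts rounded to whole reads. Reads without molecular identifiers are not independent molecules. Where a library had no reads, 0.5 read was added to both. Rows of a name were summed for guide and 3p levels. A row was a guide when it held the seed; a row without an arm in its name was a 3p arm when at least 14 positions matched a named 3p row. Only rows with bovine names entered the 5p sums of other miRNAs, and a name without an arm was taken in with the 5p names there. The code was tested on simulated data. Named were all members, the partner and LIN28 lists, rows sharing the seed, and the 5 names nearest let-7a in level. The members and lists were chosen with earlier results of these data known. Python 3.11.15, pandas 2.3.3, NumPy 2.4.6 and SciPy 1.17.1 were used.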

Additional observations from a re-analysis of the deposited data

How the results depend on the processing

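No paired analysis was possible because each group has a single library, and none could be left out. The count of called members stayed at 0 higher and 0 lower under the other scalings, with 5 reads added, with a minimum of 100 RPM, with summed rows and with cattle names only. Without a minimum, 2 rows were called higher, both of the 24 nt let-7c. A threshold of 1.5-fold gave 2 of 23 higher, both arms of miR-98, where 79.7% of the 487 measured rows of the table lay within 1.5-fold. A threshold of 1.2-fold gave 5. For 1.2-fold and for no minimum the share over all rows is not given here, so those counts stand without a background. The median log2 ratio of the members, 0.13, became -0.026 after median-of-ratios scaling, 0.013 after trimmed-mean scaling and 0.0011 on the authors' normalized signal. These moved log2 ratios by -0.16, -0.12 and -0.13. Its sign therefore depends on the scaling. Guides with an interval above 1, 7 of 9 as reported, numbered 4, 4 and 4 under these scalings, and those below 1 numbered 4, 4 and 4 in place of 1. With cattle names only the family held 12.3% and 13.0% of the reads kept, and with each sequence counted once 9.45% and 10.1%. The total is smaller in each of these settings, so these shares are not comparable with the 12.1% and 12.7% of all reads. The 3p share of the family was then, with cattle names only, 0.197% and 0.208%, since that leaves only let-7a with 3p rows. Depth limits the 3p arms, whose intervals are wide. Counting each sequence once, added for levels and balances after seeing the data, made let-7b the highest guide and left ratios between the libraries nearly as they were, since repeated rows are equal.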

Other observations

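Outside the members, as chosen by name, 7 rows of the table held the let-7 seed at bases 2 to 8, beside 16 of the member rows. Together these 7 had 209 reads for normal and 166 for collapsed lungs, or 0.0382% and 0.0465% of all reads with the seed. The row named for mouse let-7j, with the let-7i sequence and added bases, held 182 and 136 of these reads. Besides that row, none was measured. The row named mmu-let-7k was 18 nt long, with 6 and 7 reads. The row named for macaque miR-6134, tGAGGTAGtaggatgtatagtta, had 8 and 9 reads. The others were predicted miRNAs of 18 to 20 nt with at most 8 reads in either library.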
